A study of Strongylocentrotus intermedius with 6 samples.

Results

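The msp130 genes code for mesenchyme-specific cell surface glycoproteins. They were examined in coelomocytes, which float in the body cavity of sea urchins and act in immune defence, of the species Strongylocentrotus intermedius. RNA had been sequenced from 3 libraries labelled ZT12 and 3 labelled ZT0 (zeitgeber time, usually counted in hours from lights-on), all under a regime labelled LD, usually read as light and dark. The labels do not give the hours of light, the age or sex of the animals, or whether a library came from 1 animal or from a pool. P-values therefore measure only the spread between these libraries, which may be partly technical. The family was taken as every coding gene model (identifier starting ZJQ) whose description names the mesenchyme-specific cell surface glycoprotein. This gave 12 of 30559 gene models, 22969 of them coding. The family was selected on the adjusted p-values of 2 of its members, ZJQ008708 and ZJQ008711, between ZT12 and ZT0 in these same libraries. All differences between the times are therefore given as a description of these libraries and carry no independent support.

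Msp130 was first known as a glycoprotein held at the outer surface of the primary mesenchyme cells of the sea urchin embryo, the cells that fuse and lay down the calcite skeleton. It is attached to the membrane by a lipid anchor and has been linked to the supply of calcium for the mineral. Spicule matrix proteins such as SM50, PM27 and SM30 are secreted into the mineral itself, and in adult urchins genes of both kinds are also active where spines and test are built. Sea urchin genomes hold several msp130 copies, and different copies can be active in different cells.

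In total counts the libraries were close in depth, between 20229918 and 24368884, with counts for 23487 to 24677 gene models each. Across genes, Spearman correlations of library pairs (a description, as genes are not replicates) ran between 0.900 and 0.924 for pairs of the same time and between 0.897 and 0.913 for pairs of different times. The cytoskeletal actin gene CYIA (ZJQ009269), the most abundant gene of the coelomocyte list described below, was abundant in every library. CYIA averaged 21357 ± 1972 CPM in ZT12 libraries, against 27493 ± 5223 CPM in ZT0 libraries (SD, n = 3 each). Not every gene of that list was: an echinoidin gene (ZJQ019150) had 1 and 0 counts in ZT12 libraries 1 and 3. CPM here means counts scaled to a common library size, after correction by TMM, a trimmed mean that sets the bulk of genes level. FPKM, the authors' value per kilobase of gene and per library depth, was used to compare msp130 members with each other and with SM50. Sums over the gene lists below, and the choice of their most abundant genes, used CPM, which is not corrected for gene length.

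None of the 12 members carried a gene symbol, and all had plasma membrane as their GO term. Their names come from likeness to the Strongylocentrotus purpuratus protein, so the family name rests on these descriptions and the copies cannot be matched to the named copies of that species. Gene lengths implied by the deposited values ran from 1668 to 5014 bases. A stretch of 5 members, ZJQ008666 to ZJQ008670, had consecutive identifiers, and ZJQ008708, ZJQ008710 and ZJQ008711 lay close together in number. Genome positions and sequences are not analysed here. Reads shared between near-identical copies could be split or lost in counting, so the separate values of the copies are uncertain.

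All 12 members had counts in at least 1 library, but most of the signal came from a few. The 6 members that passed the filter on low counts had totals of 609 to 14719 counts over the 6 libraries, and the other 6 had totals of 4 to 37. ZJQ008606 was the most abundant copy at both times, at 16.4 ± 14.1 FPKM at ZT12 and 60.6 ± 45.2 FPKM at ZT0 (SD, n = 3 each). By mean FPKM it ranked 2558 at ZT12 and 703 at ZT0 among 22969 coding genes. At ZT0 ZJQ008711 came next with 22.4 ± 8.70 FPKM and did not overlap its neighbours in that order. Below it the ranges of neighbours overlapped, from ZJQ008710 with 7.21 ± 0.777 FPKM through ZJQ008669 with 6.17 ± 2.61 FPKM and ZJQ008025 with 2.79 ± 0.890 FPKM to ZJQ008708 with 1.78 ± 0.946 FPKM. At ZT12 the order below ZJQ008606 was ZJQ008669 (8.89 ± 5.84 FPKM), ZJQ008710 (7.93 ± 0.680 FPKM), ZJQ008025 (5.02 ± 0.156 FPKM), ZJQ008711 (1.48 ± 1.04 FPKM) and ZJQ008708 (0.0458 ± 0.0494 FPKM). ZJQ008606, ZJQ008669 and ZJQ008710 overlapped there, and each later neighbour lay apart from the one before it. ZJQ008711 thus stood next to the top of the family at ZT0 and, among the 6 more abundant members, next to the bottom at ZT12.

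Summed over the 12 members, the level was lower at ZT12 than at ZT0 in these libraries. The sum was 27.3, 61.8 and 32.01 FPKM in ZT12 libraries 1, 2 and 3, against 71.3, 166 and 66.5 FPKM in ZT0 libraries 1, 2 and 3. The highest ZT12 library lay just under the lowest ZT0 library. In CPM the sum averaged 113 ± 49.8 in ZT12 libraries, against 319 ± 148 in ZT0 libraries (SD, n = 3 each), a log2 ratio of the means of -1.49. The family took 0.00814 to 0.0178% of all counts in ZT12 libraries and 0.0204 to 0.0509% in ZT0 libraries. Library 2 of either time had the highest sum of its time, mainly from ZJQ008606. In bulk libraries fewer cells of a type and less RNA per cell cannot be told apart, which holds for every level below.

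**Figure D1:**
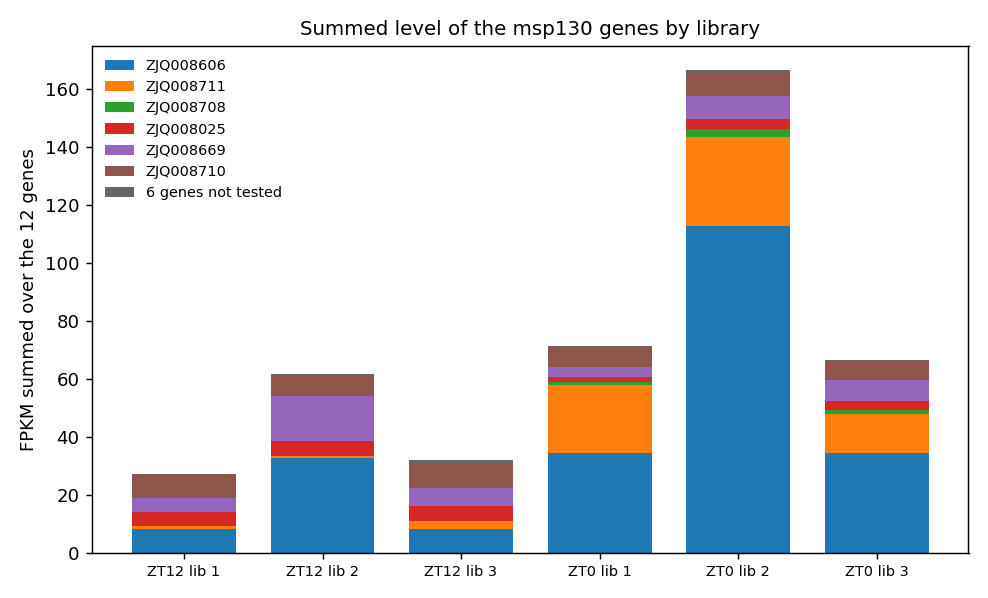
FPKM of the msp130 genes, stacked by gene, in each of the 6 libraries (ZT12 libraries left, ZT0 libraries right). The sums run from 27.3 to 61.8 FPKM at ZT12 and from 66.5 to 166 FPKM at ZT0, and ZJQ008711 makes up 1.27 to 8.35% of a ZT12 bar, against 18.3 to 33.1% of a ZT0 bar.

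The make-up of the family also differed between the times. ZJQ008606 held 25.97 to 52.9% of the summed FPKM in ZT12 libraries and 48.2 to 67.8% in ZT0 libraries, and these ranges overlapped. ZJQ008711 held 1.27 to 8.35% in ZT12 libraries and 18.3 to 33.1% in ZT0 libraries, without overlap. ZJQ008710 held a larger share at ZT12, with 11.6 to 29.6% in ZT12 libraries and 4.83 to 9.95% in ZT0 libraries. ZJQ008025 and ZJQ008669 together with ZJQ008710 summed to 17.8, 27.8 and 19.98 FPKM in ZT12 libraries 1, 2 and 3, against 12.1, 19.5 and 17.0 FPKM in ZT0 libraries 1, 2 and 3. Those sums overlapped between the times. The sums of ZJQ008606, ZJQ008708 and ZJQ008711, 9.29 to 33.5 FPKM in ZT12 libraries and 49.2 to 146 FPKM in ZT0 libraries, did not.

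Of the 6 members tested, 2 were lower at ZT12 in the quasi-likelihood test of edgeR, adjusted by Benjamini-Hochberg over all 18456 genes tested, 0 were higher, and 4 did not pass. At an unadjusted p under 0.05 edgeR had 3 of the 6 lower and 1 higher, against 3.87% lower, 3.44% higher and 7.31% in either direction of all genes tested. DESeq2 called the same 2 lower, limma-voom called 0, and neither called any higher. Over all genes tested 0.114% were called lower, 0.0163% higher and 0.13% in either direction, which is 21 lower and 3 higher. Without ZT12 library 2 the total was the same, with 12 lower and 12 higher. Since these calls chose the family, nothing is read from that count. The called members ZJQ008708 and ZJQ008711 both stood at an adjusted p of 0.0396, inside the threshold of 0.05, and the next member, ZJQ008606, stood outside at 0.562. The median log2 fold change (ZT12 minus ZT0) of the 6 tested members was -0.97, with 3 below and 3 above 0, and that of all genes tested was 0.00. In CPM the times did not overlap for 4 of the 6, with ZT12 lower for 3 and higher for 1. Over all genes tested the times did not overlap for 12.2%, with ZT12 lower for 6.33% and higher for 5.84%.

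**Figure D2:**
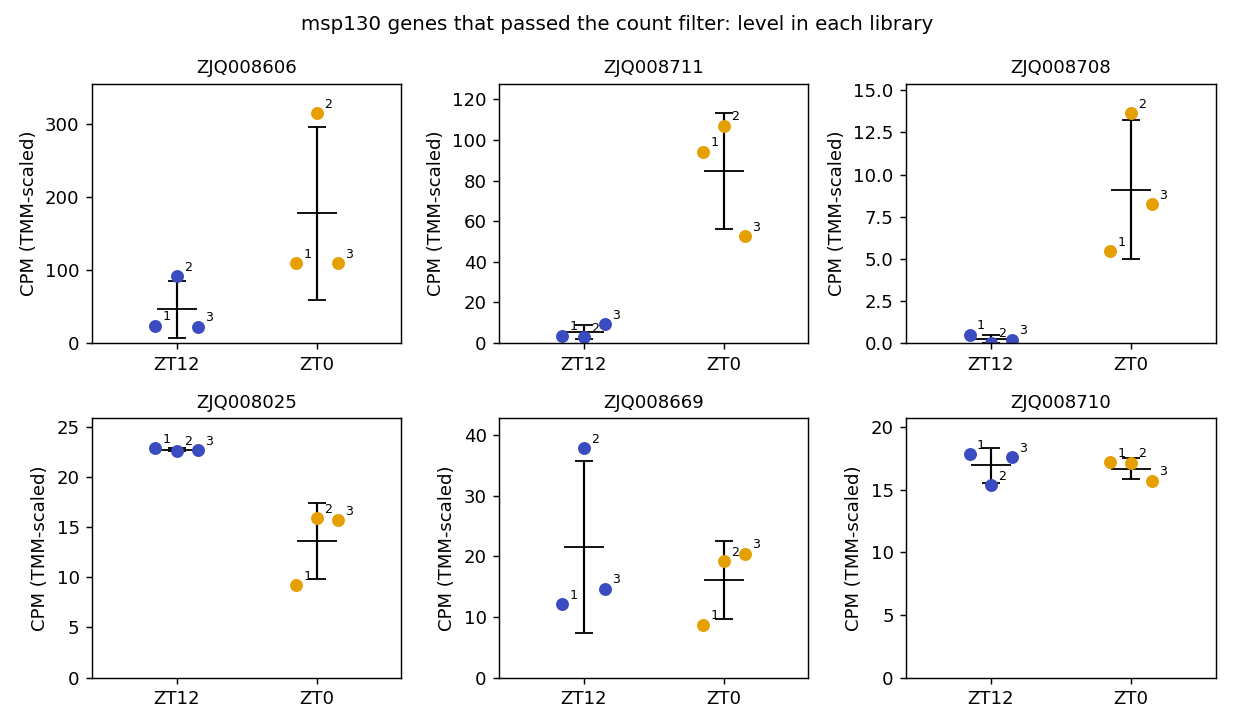
CPM of each tested msp130 gene in each library, numbered by library, with the mean and SD of each time (n = 3; a lower error bar ends at 0). ZJQ008606, ZJQ008711 and ZJQ008708 lie lower in all ZT12 libraries than in any ZT0 library, ZJQ008025 lies higher, and ZJQ008669 and ZJQ008710 overlap.

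ZJQ008711 was lower at ZT12 and was the more abundant of the called members. It had 3.56, 2.76 and 9.09 CPM in ZT12 libraries 1, 2 and 3, against 94.2, 107 and 52.5 CPM in ZT0 libraries 1, 2 and 3. Every ZT12 library was several-fold below every ZT0 library, and the values rested on 344 counts at ZT12 and 5429 at ZT0. The fitted difference was -4.04 on the log2 scale (SE 0.50), or 16.5-fold lower at ZT12. Without single libraries it ran from -4.74 (without ZT12 library 3, the highest of its time) to -3.75 (without ZT12 library 2).

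ZJQ008708, the longest member at 5014 bases, was close to undetected at ZT12. It had 12, 0 and 4 counts in ZT12 libraries 1, 2 and 3, which is 0.491, 0 and 0.183 CPM, against 108, 319 and 166 counts, or 5.45, 13.6 and 8.25 CPM, in ZT0 libraries 1, 2 and 3. A count of 0 in ZT12 library 2 allows up to 0.143 CPM (3 counts, counting error only). Every ZT12 library was far below every ZT0 library. The fitted log2 fold change was -5.24 (SE 0.75), and it was -6.52 without ZT12 library 1 and -4.71 without ZT12 library 2. Neither call was firm: the edgeR adjusted p of ZJQ008711 was above the threshold after dropping each library in turn (0.0593 to 0.188), and ZJQ008708 kept its call only without ZT0 library 1 (0.045, and 0.114 to 0.221 without each of the others).

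ZJQ008606 was lower at ZT12 in every library but varied strongly within a time. It had 23.8, 91.3 and 22.4 CPM in ZT12 libraries 1, 2 and 3, against 109, 315 and 109 CPM in ZT0 libraries 1, 2 and 3. Libraries 1 and 3 of a time were nearly equal, and library 2 was the highest of each time. The log2 fold change was -1.96 (SE 0.66, edgeR adjusted p = 0.562), and 91.3 CPM in ZT12 library 2 came close to 109 CPM in ZT0 library 1. Over the alternatives below the adjusted p ran from 0.0643 (edgeR with the library numbers as a block) to 0.766 (limma-voom). By DESeq2 the adjusted p was 0.0961. The size rested on the libraries numbered 2: it was -2.94 without that of ZT12 and -1.26 without that of ZT0. Its highest library was 4.07 times its lowest at ZT12 and 2.89 times at ZT0. The ZT12 libraries also differed from each other in an echinoidin gene (ZJQ019150), an abundant gene of the coelomocyte list that codes for a lectin. This gene had 1, 68151 and 0 counts in ZT12 libraries 1, 2 and 3 (0.0409, 3238 and 0 CPM), against 3472, 6686 and 2861 CPM in ZT0 libraries 1, 2 and 3. For this gene ZT12 library 2 lay within the range of the ZT0 libraries, and ZT12 libraries 1 and 3 lay at or near 0. The part of this difference between ZT12 libraries in the msp130 values was not tested.

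ZJQ008025 went the other way. It had 22.9, 22.6 and 22.7 CPM in ZT12 libraries 1, 2 and 3, against 9.24, 15.9 and 15.7 CPM in ZT0 libraries 1, 2 and 3. The ZT12 libraries were almost equal, within a ratio of 1.01, and all lay above the ZT0 libraries. The log2 fold change was 0.74 (SE 0.27, edgeR adjusted p = 0.617), so it did not pass the test.

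ZJQ008710 had the narrowest range over the 6 libraries among the tested members. It had 17.8, 15.3 and 17.6 CPM in ZT12 libraries 1, 2 and 3, against 17.2, 17.1 and 15.7 CPM in ZT0 libraries 1, 2 and 3. The times overlapped, and the log2 fold change was 0.02 (SE 0.22, edgeR adjusted p = 0.991). Its identifier directly precedes that of ZJQ008711. The ratio of ZJQ008711 to ZJQ008710 in FPKM, taken within a library, was 0.121, 0.109 and 0.313 in ZT12 libraries 1, 2 and 3, against 3.33, 3.79 and 2.03 in ZT0 libraries 1, 2 and 3. Since both genes come from the same library, this ratio does not depend on the scaling of library sizes.

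ZJQ008669 overlapped between the times. It had 12.2, 37.8 and 14.7 CPM in ZT12 libraries 1, 2 and 3, against 8.73, 19.2 and 20.4 CPM in ZT0 libraries 1, 2 and 3. ZT12 library 2 was the highest and ZT0 library 1 the lowest of all 6. The log2 fold change was 0.41 (SE 0.50, edgeR adjusted p = 0.908), and it was -0.27 without ZT12 library 2.

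The 6 members that were not tested had at most 0.823 CPM in any library. ZJQ000029 had 2, 11 and 8 counts in ZT12 libraries 1, 2 and 3, against 1, 9 and 2 counts in ZT0 libraries 1, 2 and 3. ZJQ008002 had 5, 6 and 11 counts in the ZT12 libraries, against 9, 2 and 4 counts in the ZT0 libraries, in the same order. Both overlapped between the times. Within the run of consecutive identifiers, ZJQ008668 had 2, 1 and 18 counts at ZT12, against 0, 10 and 1 counts at ZT0. ZJQ008667 had 0, 1 and 0 counts at ZT12, against 0, 9 and 3 counts at ZT0. ZJQ008670 was counted in library 2 of each time alone, with 4 counts at ZT12 and 7 at ZT0. ZJQ008666 had 1, 0 and 3 counts at ZT12 and none at ZT0, where 0 counts allow up to 0.128 to 0.151 CPM in a library. ZJQ008669, which belongs to the same run of identifiers, had 1414 counts at ZT12 and 1033 at ZT0, so abundance within the run was far from even. At this depth no difference between the times was detectable in these 6. With all genes of a total above 0 tested, their adjusted p by edgeR was 0.779 or higher.

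The spicule matrix genes, the other class of skeleton genes, were set beside the family. Their list had 6 further genes, of which 5 were tested and 1, an SM30 copy (ZJQ010411), had no counts. All 5 had a log2 fold change below 0 in these libraries, with a median of -4.26. By edgeR 4 were called lower and 1 was not called, against 0.114% called lower over all genes tested. DESeq2 called all 5 and limma-voom 0. SM50 (ZJQ010321), PM27 (ZJQ010317), SM30 (ZJQ010416) and SM30A (ZJQ010417) had log2 fold changes of -4.26, -4.78, -5.75 and -4.09 (edgeR adjusted p = 0.00587, 0.0059, 0.00587 and 0.00587), and the 41 kDa spicule matrix gene (ZJQ010322) had -3.46 (adjusted p = 0.218). ZJQ008711 and ZJQ008708 lay within that range and ZJQ008606 outside it. Both sets share the same libraries, so these values stand side by side only.

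**Figure D3:**
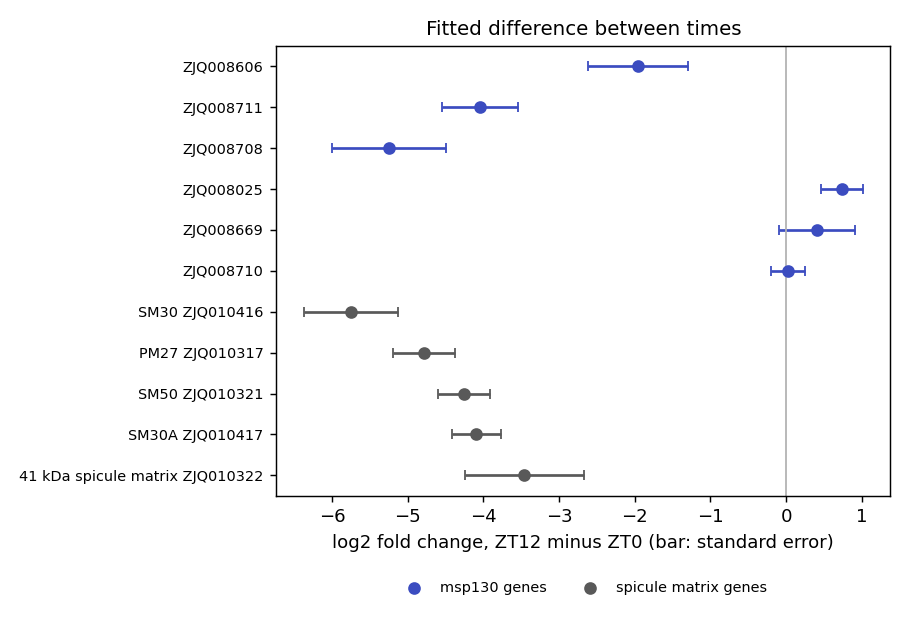
Log2 fold change (ZT12 minus ZT0) of the 6 tested msp130 genes and the 5 tested spicule matrix genes, with the standard error of the edgeR fit. The spicule matrix genes lie between -5.75 and -3.46, with ZJQ008711 (-4.04) and ZJQ008708 (-5.24) among them, ZJQ008606 at -1.96, and ZJQ008025, ZJQ008669 and ZJQ008710 above 0.

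Within libraries, the members differed in how closely they kept step with SM50. The ratio of ZJQ008708 to SM50 in FPKM was nearly constant at ZT0, at 0.0231, 0.0276 and 0.0242 in libraries 1, 2 and 3, while at ZT12 it was 0.0246, 0 and 0.0124, from few counts. ZJQ008711 over SM50 was 0.244, 0.179 and 0.843 in ZT12 libraries 1, 2 and 3, against 0.547, 0.297 and 0.211 in ZT0 libraries 1, 2 and 3, and the times overlapped. ZJQ008606 over SM50 was 2.06, 7.46 and 2.62 at ZT12, against 0.798, 1.10 and 0.553 at ZT0, in the same order, without overlap. At ZT12 the most abundant msp130 copy was thus above SM50 in all 3 libraries, and at ZT0 it was above SM50 in library 2 alone.

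**Figure D4:**
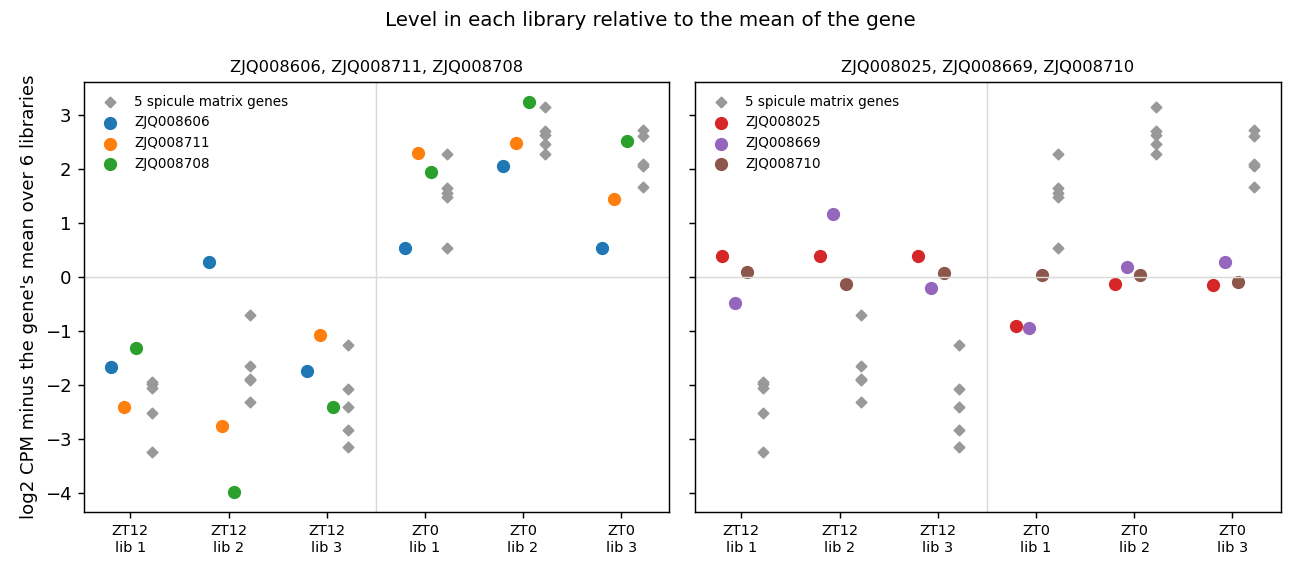
Log2 CPM of each gene minus its mean over the 6 libraries. Left, ZJQ008606, ZJQ008711 and ZJQ008708, below their means in the ZT12 libraries except ZJQ008606 in library 2 (0.28); right, the other 3 tested members, which stay within 1.16 of their means. Grey diamonds in both panels are the 5 tested spicule matrix genes.

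Genes with the most similar profile were ranked by the root mean square difference of log2 CPM over the 6 libraries, after each gene was centred on its own mean, among 18450 tested genes outside the family. The rule that picked ZJQ008708 and ZJQ008711 used the same libraries, so the ranking is a description. Nearest to ZJQ008711 was an echinoidin gene (ZJQ008251), of a family of coelomic fluid lectins, at 0.40 log2 units. It had 0.450, 0.285 and 0.914 CPM in ZT12 libraries 1, 2 and 3, against 7.37, 18.4 and 8.996 CPM in ZT0 libraries 1, 2 and 3. At ZT12 it had 11, 6 and 20 counts in libraries 1, 2 and 3. Its lowest ZT0 library was library 1, whereas that of ZJQ008711 was library 3. After it came models without a name, ZJQ013051 (0.52), lncRna03941 (0.55), ZJQ013052 (0.64), lncRna07218 (0.65) and lncRna07251 (0.67). Summed over the ZT12 libraries, these models had 9, 0, 5, 9 and 19 counts in that order. Their ZT12 values, and so their places, rested on few counts. SM30A stood at place 9 (0.70) and SM50 at place 14 (0.78).

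Nearest to ZJQ008708 was Ca7 (ZJQ025131), annotated as a carbonic anhydrase, an enzyme that makes bicarbonate from carbon dioxide, at 0.71 log2 units. Ca7 had 2.29, 1.24 and 1.05 CPM in ZT12 libraries 1, 2 and 3, against 25.3, 41.6 and 37.1 CPM in ZT0 libraries 1, 2 and 3. Next were ZJQ008331, which has no name (0.78), PM27 (0.79), SLC26A5 (ZJQ003578, annotated prestin, of a family of anion transporters, 0.82), the echinoidin gene ZJQ008251 (0.84) and ZJQ009998, a C-type lectin gene (0.86). Summed over the ZT12 libraries, ZJQ008331 and ZJQ009998 had 7 and 8 counts, and ZJQ008708 itself had 16. Between members, ZJQ008708 and ZJQ008711 were 1.03 apart, ZJQ008025 and ZJQ008710 were 0.48 apart and ZJQ008025 and ZJQ008669 were 0.57 apart. ZJQ008606 was at least 1.31 from every other tested member. It was 0.74 from the 41 kDa spicule matrix gene (place 74), which had 165 counts in all. From the other tested spicule matrix genes it was further: SM30A (1.18, place 2081), SM50 (1.23, place 3069), PM27 (1.55, place 12974) and SM30 (1.67, place 14589).

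Most genes of the lists chosen by name as related to the skeleton were not called. Whether these genes act in a skeleton programme in coelomocytes was not tested, and 28 of the 83 tested were peptidyl-prolyl isomerases. Over 7 lists with 106 genes outside the family, the spicule matrix genes included, 83 were tested. By edgeR 6 were called lower at ZT12, 0 higher and 77 were not called, against 0.114% lower and 0.0163% higher over all genes tested. At an unadjusted p under 0.05 edgeR had 14 of the 83, against 7.31% of all genes tested. The median log2 fold change of the 83 was -0.02. DESeq2 called 10 lower and limma-voom 0, neither called any higher, and edgeR called 0 without ZT12 library 1 or without ZT12 library 3. Beside the 4 spicule matrix genes, the called genes were 1 of 5 tested carbonic anhydrases (Ca7, log2 fold change -4.48, edgeR adjusted p = 0.00668) and 1 of 12 tested bicarbonate and anion transporters (SLC26A5, -5.48, 0.00807). The carbonic anhydrase gene of highest mean CPM was Ca2 (ZJQ017234). Ca2 had 909 ± 184 CPM in ZT12 libraries, against 954 ± 136 CPM in ZT0 libraries (SD, n = 3 each). Its log2 fold change was -0.07, with an edgeR adjusted p of 0.964. Ca14 (ZJQ019029), another of these enzymes, had a log2 fold change of 1.15 (adjusted p = 0.696). The bicarbonate transporter genes SLC4A10 (ZJQ019501) and Slc4a3 (ZJQ018831) had -0.05 and 0.33 (adjusted p = 0.971 and 0.713).

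None of the 11 tested regulator genes was called, and 1 was lower at an unadjusted p under 0.05 by edgeR, with 0 called by DESeq2 or limma-voom. ETS1 (ZJQ001892), a transcription factor of the skeletogenic network in the embryo, averaged 619 ± 106 CPM in ZT12 libraries, against 875 ± 236 CPM in ZT0 libraries (SD, n = 3 each). ERG (ZJQ001896), another factor of that network, averaged 694 ± 64.6 CPM in ZT12 libraries, against 769 ± 101 CPM in ZT0 libraries. The log2 fold changes of ETS1 and ERG were -0.50 and -0.15 (edgeR adjusted p = 0.721 and 0.909).

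Vascular endothelial and fibroblast growth factor signalling guides skeletogenic cells in the embryo, and 0 of 13 tested genes of these pathways were called. FGFR (ZJQ007108), a fibroblast growth factor receptor, averaged 100.2 ± 20.99 CPM in ZT12 libraries, against 184 ± 6.58 CPM in ZT0 libraries (log2 fold change -0.88, edgeR adjusted p = 0.298). Flt1 (ZJQ005939), a vascular endothelial growth factor receptor, averaged 83.7 ± 26.5 CPM in ZT12 libraries, against 83.0 ± 34.0 CPM in ZT0 libraries (0.01, adjusted p = 0.996). Of 9 matrix metalloproteinase genes and 28 peptidyl-prolyl isomerase genes tested, 0 were called. By edgeR 4 of the metalloproteinases, 1 isomerase and 1 growth factor gene were lower at an unadjusted p under 0.05, and 0 were higher, against 3.87% lower and 3.44% higher of all genes tested. DESeq2 called 1 gene lower in each of these 3 lists and limma-voom 0. MMP24 (ZJQ024369) and Mmp10 (ZJQ015686), enzymes that cut matrix proteins, had log2 fold changes of -0.80 and -0.87 (edgeR adjusted p = 0.397 and 0.651). The isomerase genes of highest mean CPM, ZJQ015589 and FKBP1B (ZJQ011348), had 0.02 and 0.31 (adjusted p = 0.995 and 0.813).

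Markers of cell types and signs of library quality were summed in each library. The spicule matrix list ran from 10.4 to 14.2 CPM at ZT12, against 172 to 354 CPM at ZT0. The coelomocyte list (79 genes, 6 at 0 in all libraries) ran from 26865 to 32843 CPM at ZT12, against 35302 to 41056 CPM at ZT0, also without overlap. Most of that sum was CYIA, and the tested genes of the list did not share its direction: 18 of 43 had a log2 fold change below 0 and 25 above, with a median of 0.12. Sums overlapped for pigment cell genes (118 genes, 4 at 0), at 2415 to 3367 CPM at ZT12 and 2688 to 2986 CPM at ZT0. They overlapped for gut genes (79 genes, 4 at 0), at 4183 to 4459 CPM at ZT12 and 4285 to 5346 CPM at ZT0. Most of the gut sum was a trypsin gene (ZJQ009370), at a mean of 3333 CPM at ZT12 and 3998 CPM at ZT0. Of 35 tested gut genes 22 had a log2 fold change above 0 and 13 below, with a median of 0.17. Muscle genes (11 genes, 0 at 0) had 727 to 807 CPM at ZT12 and 669.8 to 865 CPM at ZT0, again overlapping. So did germ cell genes (8 genes, 1 at 0), with 258 to 672 CPM at ZT12 and 162 to 493 CPM at ZT0. Nervous genes (90 genes, 7 at 0) had overlapping sums of 911 to 1350 CPM at ZT12 and 975 to 1474 CPM at ZT0. Cytosolic ribosomal protein genes, taken as a sign of library quality, summed to 71027 to 91321 CPM at ZT12 and 80611 to 124907 CPM at ZT0. These sums overlapped, but 75 of the 79 tested genes of that list had a log2 fold change below 0, with a median of -0.38, the same direction as the called msp130 genes. Mitochondrially encoded genes (3 models) summed to 172 to 212 CPM at ZT12, against 103 to 162 CPM at ZT0, without overlap. Limma-voom called 0 genes of any of these lists, and edgeR called 0 outside the spicule matrix list. At an unadjusted p under 0.05 edgeR had 7 of 35 tested gut genes higher and 2 lower. Of 43 coelomocyte genes 6 were higher and 2 lower, and of 51 pigment cell genes 2 were higher and 6 lower. Of 45 nervous genes 2 were higher and 2 lower, and of 8 muscle genes 1 was higher and 0 lower. Of 79 ribosomal genes 0 were higher and 3 lower, and of 5 spicule matrix genes 0 and 5. Germ cell and mitochondrial genes had 0. Over all genes tested 3.44% were higher and 3.87% lower. DESeq2 called 1 pigment cell gene lower, 1 coelomocyte gene higher and 1 lower, and 5 gut genes higher. The part of these differences in the msp130 values was not tested.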

How the data were processed

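Coelomocyte RNA was measured in 3 ZT12 and 3 ZT0 libraries. RNA was extracted with TRIzol and libraries were made with a VAHTS RNA-seq kit, per the labels' protocols. The tools named are fastp, HISAT2 and HTSeq, per the submitters' processing notes. Their versions, the genome build, annotation, strand setting and treatment of reads matching several genes: not given in the sources used here. Files deposited by the authors hold whole-number counts per gene and, for the same libraries, FPKM values computed by the authors. Of 109307 FPKM values with at least 10 counts, 100% equalled counts over total and 1 length per gene within 0.1%, which gave the lengths.

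Counts were tested with edgeR 4.0.16 (R 4.3.3) with filterByExpr by group (minimum count 10, minimum total 15), TMM and glmQLFit (legacy = FALSE), ZT12 minus ZT0 over 18456 genes, with Benjamini-Hochberg adjustment and a threshold of 0.05. Each standard error was obtained from the fold change and its F statistic, as absolute log2 value over root F. Profiles used log2 CPM with a prior count of 2. Alternatives used DESeq2 1.42.0 and limma 3.58.1. The scripts were tested on simulated data. Limits from counts of 0 cover counting error only.

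The members and the lists were chosen with earlier results of these data known. Lists were patterns on symbols and descriptions. A nucleoporin was removed on its name, and a germ cell pattern that also caught the word binding was narrowed. Named genes were all members, all spicule matrix genes, the 6 genes nearest in profile to each called member, and the pair of highest mean CPM in each other list. For the marker and quality lists only those of coelomocytes and the most abundant gut gene are named, for length.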

Additional observations from a re-analysis of the deposited data

How the results depend on the processing

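The count of all genes called, 24 by edgeR, was 10 with legacy = TRUE, 264 by DESeq2 (133 higher, 131 lower), 0 by limma-voom (1078 at an unadjusted p under 0.05), and 0 to 24 without single libraries. The count was 0 without ZT12 library 1 (1398 at an unadjusted p under 0.05) or library 3 (1502) and 15 without ZT0 library 3, and it was 24 with 12 higher and 12 lower without ZT12 library 2, against 3 higher and 21 lower with all libraries. The 2 msp130 calls became 0 with plain library sizes, legacy = TRUE, limma-voom and limma-trend on log2(FPKM + 1) or log2(FPKM + 0.1), each with 4 at an unadjusted p under 0.05, and 0 to 1 without single libraries (2 to 4 at an unadjusted p under 0.05). They stayed at 2 with DESeq2 size factors in edgeR, without the filter and by DESeq2 (adjusted p = 7e-08 for ZJQ008708 and 1.76e-12 for ZJQ008711). Plain library sizes gave all genes a median log2 fold change of 0.12, and log2(FPKM + 0.1) of 0.11. The 6 skeleton calls became 10 by DESeq2, 0 by limma-voom (12 at an unadjusted p under 0.05) and 0 to 6 without single libraries, being 0 without ZT12 library 1 (17) or 3 (14). Keeping the nucleoporin, also tried after seeing the data, left 6.

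With the replicate block, 13 genes, 0 msp130 genes and 3 skeleton genes were called (1188, 4 and 12 at an unadjusted p under 0.05). The labels do not say whether same-numbered libraries are paired. Same-numbered libraries had correlations of -0.0483, 0.0166 and -0.000962 in their deviations from the time means, and differently numbered ones ran from -0.12 to 0.131. With 3 libraries per time these values cannot settle the pairing.

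The log2 fold changes of ZJQ008606, ZJQ008708, ZJQ008711 and ZJQ008025 kept their direction in all 15 alternatives, over -2.94 to -1.26, -6.52 to -1.36, -4.74 to -3.24 and 0.52 to 0.87. The value of -1.36 came from log2(FPKM + 1), where a pseudocount of 1 is near this gene's level. Without single libraries ZJQ008669 ran from -0.27 to 0.71 and ZJQ008710 from -0.0195 to 0.0882, so neither had a firm sign. The log2 ratio of summed CPM ran from -1.91 to -1.04 without single libraries and was -1.06 without ZJQ008606, an alternative chosen after seeing the data. The 6 untested members had at most 37 counts each over all libraries. The cause of the shifts between alternatives was not tested.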
